A study of Mus musculus with 6 samples.

Results

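Androgens and estrogens are converted and switched off in the testis by a small set of enzymes, and 10 of their genes were followed here in whole mouse testis: the 5α-reductases Srd5a1, Srd5a2 and Srd5a3, the aromatase gene Cyp19a1, the estrogen sulfotransferase gene Sult1e1, the hydroxysteroid dehydrogenase genes Akr1c14, Hsd11b1, Hsd17b7 and Hsd17b12, and Por, which encodes the electron donor of microsomal P450 enzymes. They were taken by symbol, and all 10 stood in the deposited table of 38715 genes. RNA was sequenced from 6 libraries of testis, 3 titled Control and 3 titled Middle. The design text contrasts controls with mice exposed to MES, and Middle, the only title beside Control, is read here as the exposed group. The series title places the exposure in early life, and the sources used here do not give strain, genotype, age at sampling, dose or route. The labels do not tie each library to an animal of its own, and p-values therefore measure only the spread between these libraries, which may be technical. All markers of spermatids, spermatocytes, Sertoli cells and Leydig cells that were looked up had reads in every library. Reads over genes summed to 38820385 to 58389391 per library. All values are RPKM, reads scaled by gene length and library total, so levels can be compared between genes.

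Testosterone made by Leydig cells has several fates. A 5α-reductase turns it into dihydrotestosterone, aromatase turns it into estradiol, and reductases of the aldo-keto family convert dihydrotestosterone to weaker androgens. Sulfation makes estradiol unable to bind its receptor, and in the rodent testis Sult1e1 is known as a Leydig cell gene. Por passes electrons from NADPH to aromatase and to Cyp17a1, the P450 that makes androgens. Srd5a3, Hsd17b7 and Hsd17b12 also have posts outside steroid hormones, in the synthesis of dolichol, of cholesterol and of long-chain fatty acids.

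The 10 genes fell into a higher and a lower tier. Sult1e1 (mean over 6 libraries 6.24 RPKM), Por (5.30) and Hsd17b12 (4.99) lay between the 80.5th and 82.6th percentile of all genes. Cyp19a1 followed at 0.906 RPKM, then Srd5a1 at 0.379, Srd5a3 at 0.326, Srd5a2 at 0.132, Akr1c14 at 0.126, Hsd17b7 at 0.0904 and Hsd11b1 at 0.0297. Neighbours in this order overlapped between libraries in most places. Exceptions were the step from Hsd17b12 to Cyp19a1, the step from Cyp19a1 to Srd5a1, the step from Srd5a3 to Srd5a2 and the step from Hsd17b7 to Hsd11b1. A gene was tested where its mean reached 1 RPKM in at least 1 group, which 4 of the 10 did: Sult1e1, Por, Hsd17b12 and, only just and only through Control, Cyp19a1 (1.003 RPKM in Control). The next gene below the line was Srd5a1 (0.362 in Control, 0.396 in Middle).

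Of the 4 tested genes 0 passed an adjusted p of 0.05 (limma with Benjamini-Hochberg adjustment over 15040 genes), against 0.0532% of all genes tested (0.00665% higher and 0.0465% lower in Middle). An unadjusted p under 0.05 was reached by 1 of the 4, Sult1e1, against 20.7% of all genes. The Control and Middle libraries separated fully for 0 of the 4 tested genes and for 29.3% of all tested genes (17.9% with Middle above and 11.4% with Middle below). With only 4 genes this is not read as a result about them. The 6 genes below the filter did not separate either, but that share does not cover genes below the filter. Middle means were higher for 7 of the 10 genes and lower for 3, with the 6 genes below the filter counted in. Of the 4 tested genes 2 had a log2 fold change above 0 and 2 below, where 55.9% of all tested genes lay above 0.

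**Figure D1:**
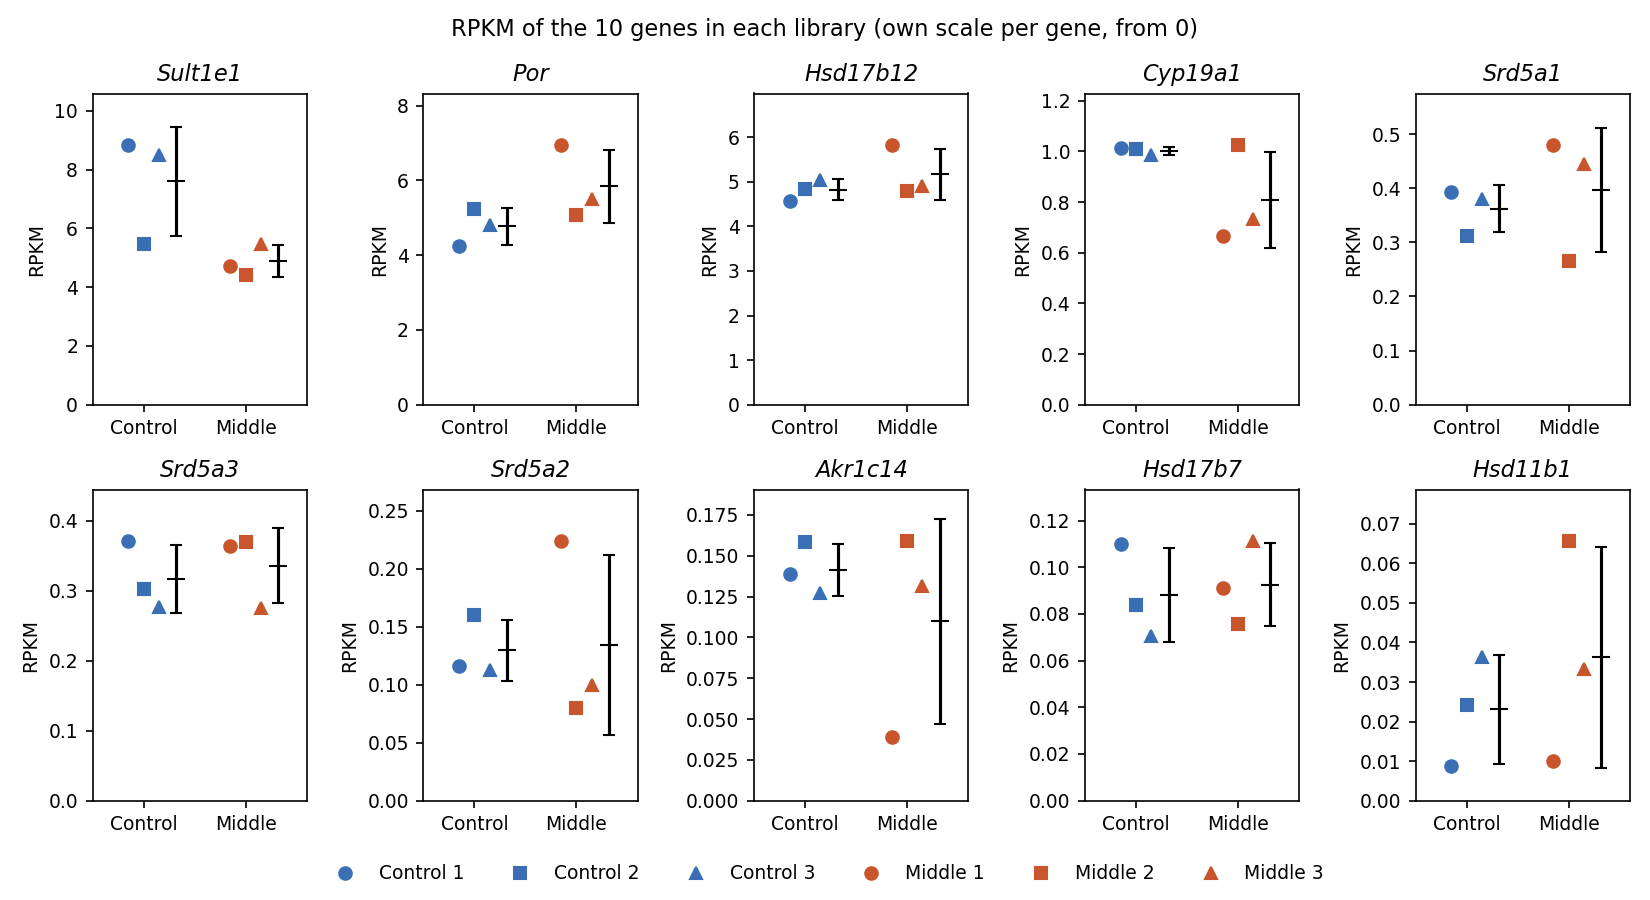
Level in RPKM (vertical axes, each from 0 and on its own scale) of the 10 genes in 3 Control (blue) and 3 Middle (orange) libraries; marker shape gives the replicate number and the black bars are mean ± SD. Sult1e1 was above 8 RPKM in 2 Control libraries and in no Middle library, and the groups overlapped in every panel.

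The 3 most abundant genes differ in the sequence ahead of their start sites, which is shown because motifs of the steroidogenic factor NR5A1 and of GATA factors, of which the series title names GATA2, were looked for there. The 250 bases before the RefSeq start are given 5′ to 3′ on the gene's own strand, in build GRCm38.p6 and not the GRCm39 of the deposited table. Capitals mark 2 motifs, searched on both strands: the NR5A1 half-site AAGGTCA and the GC box GGGCGG.
Sult1e1, chr5:87591612-87591861, minus strand: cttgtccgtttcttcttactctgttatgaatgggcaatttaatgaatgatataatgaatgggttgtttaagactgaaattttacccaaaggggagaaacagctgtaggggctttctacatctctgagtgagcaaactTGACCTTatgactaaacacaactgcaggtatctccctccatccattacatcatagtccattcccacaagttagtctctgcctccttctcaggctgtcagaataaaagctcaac
Por, chr5:135688895-135689144, plus strand: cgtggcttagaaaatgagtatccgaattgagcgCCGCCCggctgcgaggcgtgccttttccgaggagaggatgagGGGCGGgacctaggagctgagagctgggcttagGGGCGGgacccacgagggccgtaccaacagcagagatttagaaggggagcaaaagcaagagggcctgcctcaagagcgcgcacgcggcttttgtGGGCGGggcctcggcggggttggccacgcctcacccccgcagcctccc
Hsd17b12, chr2:94157910-94158159, minus strand: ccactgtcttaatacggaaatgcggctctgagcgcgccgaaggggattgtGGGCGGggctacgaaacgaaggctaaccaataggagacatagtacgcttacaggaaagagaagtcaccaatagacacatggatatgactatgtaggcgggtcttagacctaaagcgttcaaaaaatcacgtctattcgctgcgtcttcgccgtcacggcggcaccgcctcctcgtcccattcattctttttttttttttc
The Sult1e1 window holds 1 half-site, read on the opposite strand at 113 to 107 bases before the start, and no GC box. The bases just after the start were found in a GENCODE transcript of the gene for Por and Hsd17b12. They were not for Sult1e1, nor for Srd5a1 and Cyp19a1, so the Sult1e1 distance rests on the RefSeq start alone. Por has 4 GC boxes and Hsd17b12 has 1, without a half-site in either. Among the 12 windows of all 10 genes (Cyp19a1 has 3 starts) the half-site occurred in 1, and it occurs in 4.08% of 32851 RefSeq windows of this length. GC boxes stood in 6 of the 12 windows, those of the 5α-reductases, Hsd17b7, Hsd17b12 and Por, against 32.7% of all windows. The GATA motif was searched only in the form AGATAA, which was in 0 of the 12, against 9.99% of all. Other forms of the GATA motif were not searched, so these windows are not said to lack GATA sites. The cAMP response element TGACGTCA (1.55% of all) was not found. These are matches of letters, and no binding was measured.

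Sult1e1, which inactivates estrogens by sulfation, had the largest difference of the 4 tested genes. It lies on chromosome 5, 87723828 to 87739453 in GRCm39, and overlaps no other gene of the table. Its level was 8.83, 5.46 and 8.50 RPKM in Control replicates 1 to 3 and 4.73, 4.42 and 5.48 RPKM in Middle replicates 1 to 3. The groups met only at Control replicate 2 and Middle replicate 3, which were nearly equal, and the other 2 Control libraries stood well above every Middle library. Means were 7.60 ± 1.86 and 4.87 ± 0.55 RPKM (SD, n = 3), a ratio of 0.642. The log2 fold change on the log2(RPKM + 1) scale was -0.53 (SE 0.16, 95% confidence interval -0.90 to -0.15) and did not pass after adjustment (adjusted p = 0.178, limma). Counting 256 to 586 reads per library gives an error of 5.84% to 8.84%, and the SD was 24.4% of the mean between Control libraries and 11.2% between Middle libraries.

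In whole tissue, fewer cells of a type and less RNA per cell cannot be told apart, so Sult1e1 was also set against markers of its cell type. All 9 Leydig markers were detected in every library (Insl3, Star, Cyp11a1, Cyp17a1, Hsd3b1, Hsd3b6, Hsd17b3, Lhcgr and Nr5a1), with 5 of 9 means higher in Middle. Their summed level was 274 to 329 RPKM in Control and 303 to 336 in Middle, and Insl3, a hormone of mature Leydig cells, made up 72.3% of it. The log2 ratio of Sult1e1 to this sum was -5.05, -5.65 and -5.28 in Control and -6.15, -6.23 and -5.79 in Middle. Every Middle library lay below every Control library on this scale. The difference was -0.73 (two-sided exact permutation p = 0.1, the smallest that 3 against 3 allows; 0.4 adjusted over the 4 genes tested so). With Insl3 taken out of the sum it was -0.60, with the mean of the log2 marker levels in place of their sum it was -0.57, and in both the groups overlapped (exact permutation p = 0.2 each). Insl3 itself averaged 213 ± 20.7 RPKM in Control against 237 ± 2.87 in Middle (SD, n = 3).

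The picture depended on which Leydig gene Sult1e1 was divided by. The ratio of Sult1e1 to Insl3, to Hsd3b1 and to Nr5a1 was lower in every Middle than in every Control library, for 3 of the 9 markers. For the other 6 the groups overlapped, although the mean ratio was lower in Middle for 8 of 9. Star, which carries cholesterol into mitochondria, was the exception: Sult1e1 over Star was 1.59, 1.13 and 1.21 in Control and 1.19, 1.204 and 2.04 in Middle. Star itself averaged 5.80 ± 1.10 RPKM in Control against 3.44 ± 0.67 in Middle (SD, n = 3), with a log2 fold change of -0.62 (SE 0.15, limma adjusted p = 0.178), and Middle lay wholly below Control. Nr5a1, the factor of the half-site above, averaged 3.50 ± 0.42 RPKM in Control against 4.35 ± 0.31 in Middle (SD, n = 3; limma adjusted p = 0.196), with Middle wholly above. Of the 8 Leydig markers tested, 2 did not overlap between groups, where 29.3% of all tested genes did not.

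The rank of Sult1e1 among the 3 most abundant genes differed between groups. Within each of the 3 Control libraries it was the highest of the 3, and in 0 of 3 Middle libraries. Por was the highest in 3 of 3 Middle libraries and in 0 of 3 Control libraries. Sult1e1 over Por was 2.08, 1.04 and 1.77 in Control and 0.681, 0.872 and 0.995 in Middle. A ratio within a library does not depend on how libraries are scaled, but a trend on the GC content of transcripts can alter it. With each library corrected for such a trend, the log2(RPKM + 1) fold change was -0.40 for Sult1e1 and 0.15 for Por. The part of GC content in the ratio was not tested. The ratio of Sult1e1 to Por was chosen after the values were seen, so it carries no test. Control replicate 2 (1.04) and Middle replicate 3 (0.995) were close to 1. In both the gap was smaller than the counting error of Sult1e1 (5.84% to 8.84%), so the order there is not resolved.

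**Figure D2:**
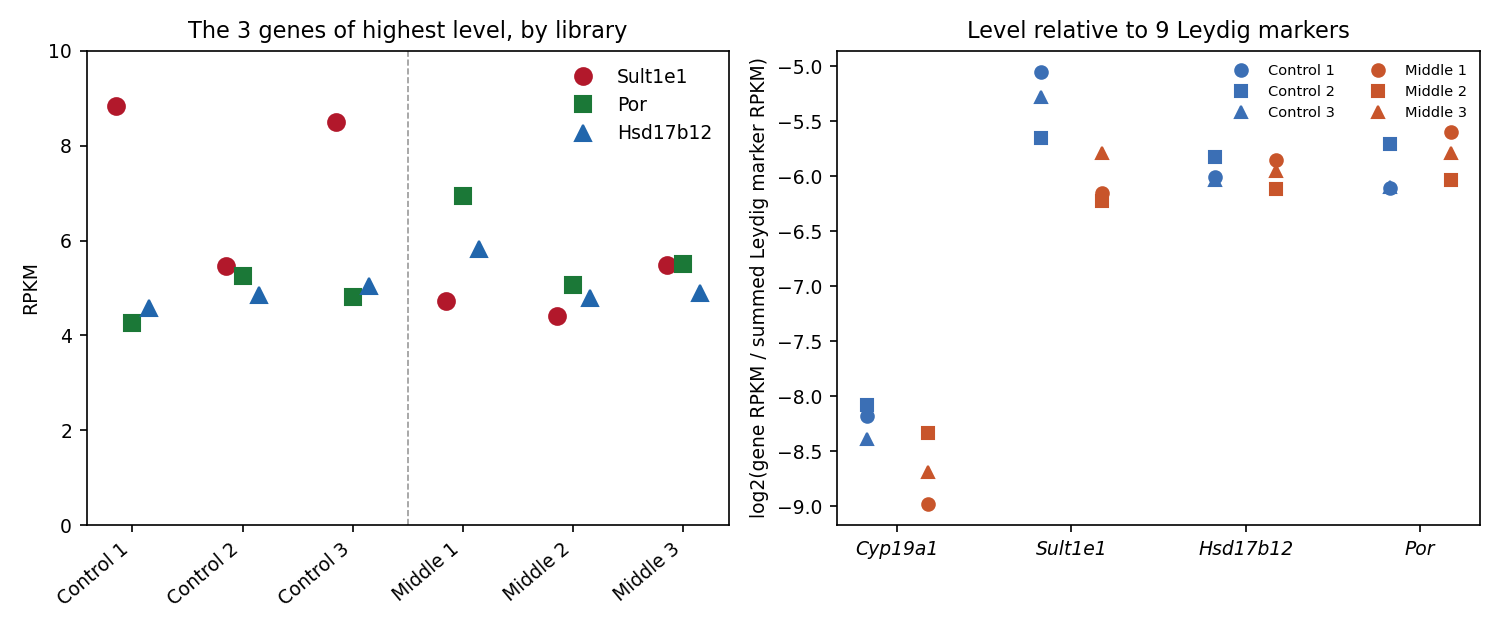
Left, RPKM of Sult1e1, Por and Hsd17b12 in each of 6 libraries, axis from 0; right, log2 of a gene's RPKM over the summed RPKM of 9 Leydig markers for the 4 tested genes (Control blue, Middle orange, shape by replicate number). Sult1e1 is the top point in the Control libraries and not in the Middle ones, and on the right its Middle points (-6.23 to -5.79) lie below its Control points (-5.65 to -5.05).

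Por is the electron donor for microsomal P450 enzymes in nearly every cell type. It lies on chromosome 5, 135698887 to 135764180, and shares no exon base with another gene of the table. Control libraries were at 4.25, 5.24 and 4.81 RPKM and Middle libraries at 6.94, 5.07 and 5.51 RPKM. Middle replicate 1 was the highest of all, and Middle replicate 2 lay inside the Control range. Means were 4.77 ± 0.50 and 5.84 ± 0.98 RPKM (SD, n = 3), a ratio of 1.22, with a log2 fold change of 0.24 (SE 0.12, 95% confidence interval -0.03 to 0.51, adjusted p = 0.273, limma). On recovered reads it was 0.28 (95% confidence interval 0.02 to 0.55, limma-voom adjusted p = 0.252). Without Middle replicate 1 the log2(RPKM + 1) fold change was 0.13, and with each library corrected for a trend on the GC content of transcripts it was 0.15.

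Middle replicate 1 was the library farthest from its group, with a chi-square per degree of freedom of 19.2 and 13.6 against the other Middle libraries and at most 6.02 for every other pair within a group. Ranked over genes, GC content and the library's departure from the mean of all libraries correlated at 0.446 in it, 0.0282 and -0.0706 in the other Middle libraries and -0.294 to -0.216 in Control, without overlap of the groups. Sums of several somatic marker lists were also higher in Middle. The summed Sertoli markers (10 of 10 detected, none at 0) were at 213 to 218 RPKM in Control and 227 to 242 in Middle. Clu made up 62.0% of that sum, and 10 of the 10 marker means were higher in Middle. Peritubular and stromal markers (10 of 10, none at 0) were at 42.0 to 47.8 and 47.2 to 60.5. Endothelial markers (5 of 5, none at 0) summed to 0.814 to 0.885 RPKM in Control and 0.967 to 1.17 in Middle, and spermatogonial markers (7 of 7, none at 0) to 20.6 to 22.4 and 22.8 to 27.4. The spermatocyte sum (8 of 8 markers, none at 0) was lower in every Middle library, at 2570.5 to 2593 and 2455 to 2535 RPKM. Ldhc made up 59.7% of it, and 3 of the 8 marker means were higher in Middle. The groups were separate for the Sertoli, endothelial, spermatogonial and spermatocyte sums and overlapped for the other lists. Spermatid markers (10 of 10, none at 0) ranged from 28027 to 31046 RPKM and from 26305 to 28776, and 1 of the 10 marker means was higher in Middle. Macrophage markers (8 of 8, none at 0) ranged from 14.3 to 18.1 RPKM and from 15.02 to 18.2. Epididymal markers, with Defb20, Lcn9, Crisp1 and Adam7 at 0 in some libraries, ranged from 1.64 to 2.03 and from 1.75 to 2.84, and Rnase10 made up 83.9% of their sum. The part of GC content and of these markers in the values of Por, or in the other differences given here, was not tested.

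Hsd17b12, a reductase of long-chain fatty acid elongation that also acts on steroids with a 17-keto group, lies on chromosome 2, 93863034 to 93988309. Levels were 4.57, 4.85 and 5.04 RPKM in Control and 5.82, 4.78 and 4.90 in Middle. Only Middle replicate 1 stood above the Control range. The means of 4.82 ± 0.24 and 5.16 ± 0.57 RPKM (SD, n = 3) gave a log2 fold change of 0.08 (SE 0.08, 95% confidence interval -0.12 to 0.28, adjusted p = 0.586, limma), and without Middle replicate 1 it was 0.0058.

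Cyp19a1, the aromatase gene, lies on chromosome 9, 54073221 to 54175394, and was at 1.01, 1.01 and 0.985 RPKM in Control and 0.668, 1.02 and 0.733 in Middle. Middle replicates 1 and 3 lay below all Control libraries, and Middle replicate 2 lay above them. Means were 1.003 ± 0.016 and 0.808 ± 0.19 RPKM (SD, n = 3), and the log2 fold change of -0.15 (SE 0.09, 95% confidence interval -0.37 to 0.06) did not pass (adjusted p = 0.357, limma). It entered this test only through its Control mean, the higher one, so the direction is not read as support for a difference. The SD of the Control libraries was 1.55% of their mean. Counting reads as pairs gives on its own 8.65% at the 267 reads of Control replicate 2, the most of any library. It gives 11.8% at the 143 reads of Middle replicate 1, the fewest. The Control SD is below both, so this spread understates the error of a single library. On the recovered reads, where no pseudocount shrinks a low gene, the log2 fold change was -0.34 (SE 0.16, adjusted p = 0.285, limma-voom). Without Middle replicate 2 it was -0.24 and without Middle replicate 1 -0.10, both on the log2(RPKM + 1) scale.

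**Figure D3:**
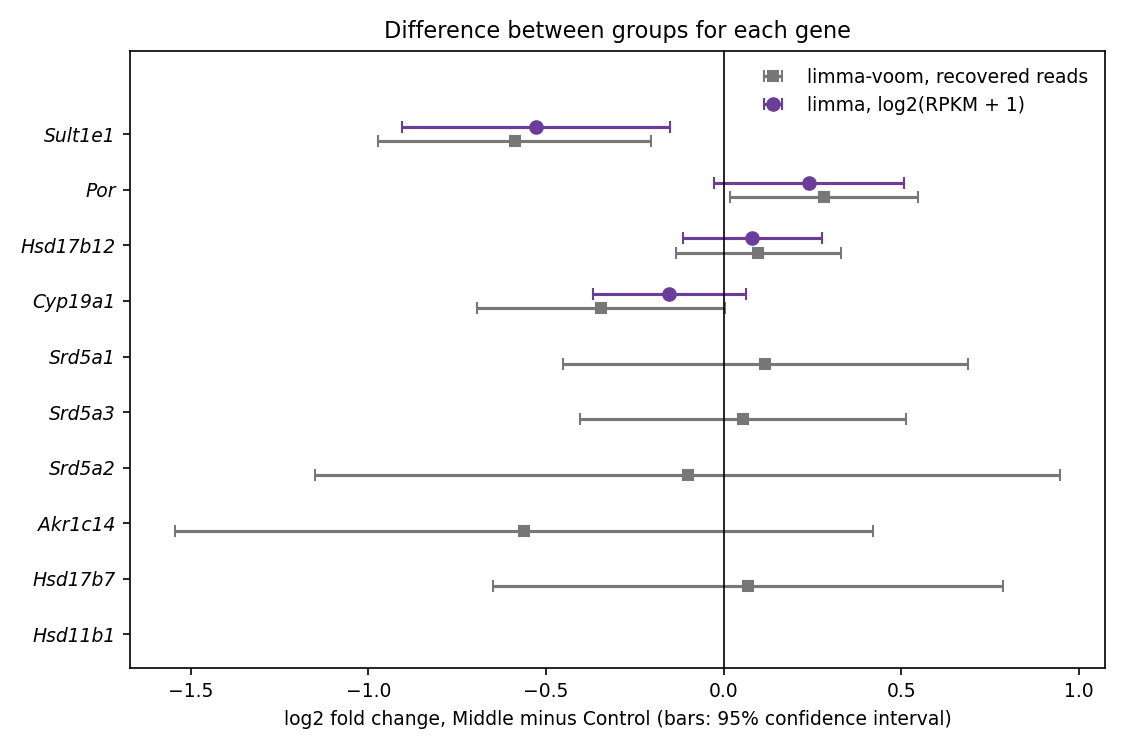
Log2 fold change, Middle minus Control (horizontal axis), with 95% confidence intervals for each gene from limma on log2(RPKM + 1) (purple circles, the 4 tested genes) and limma-voom on recovered reads (grey squares, 9 genes; Hsd11b1 had too few reads). The Sult1e1 intervals lie below 0 in both, -0.90 to -0.15 and -0.97 to -0.20, the recovered-read interval of Por lies above 0 (0.02 to 0.55), and those of Srd5a2 and Akr1c14 are the widest.

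The 5α-reductases, which make dihydrotestosterone, were all below the filter but were read in every library. Srd5a1 (chromosome 13, 69721568 to 69759561) was at 0.392, 0.312 and 0.381 RPKM in Control and 0.479, 0.265 and 0.445 in Middle. Srd5a2 (chromosome 17, 74323950 to 74354911) was at 0.117, 0.160 and 0.112 RPKM in Control and 0.224, 0.0801 and 0.0994 in Middle. Srd5a3 (chromosome 5, 76288118 to 76303351), a polyprenol reductase of dolichol synthesis, was at 0.370, 0.302 and 0.277 RPKM in Control and 0.363, 0.369 and 0.274 in Middle. The Middle values of each surrounded or overlapped the Control values, with the highest Srd5a1 and Srd5a2 values in Middle replicate 1 and the lowest in Middle replicate 2.

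Added together, the 3 reductases came to 0.808 ± 0.062 RPKM in Control against 0.866 ± 0.181 in Middle (SD, n = 3). Srd5a1 held 44.8% ± 4.57 of that sum in Control and 45.5% ± 8.61 in Middle, Srd5a3 39.0% ± 3.07 and 39.8% ± 10.3, and Srd5a2 16.2% ± 3.95 and 14.8% ± 5.39 (SD, n = 3). Srd5a2 was the lowest of the 3 in 6 of 6 libraries, and Srd5a1 was above Srd5a3 in 5 of 6. Group differences in these shares were smaller than the spread between libraries. Gm17108, on the same strand at a mean of 9.30 RPKM, shares 476 of the 2909 exon bases of Srd5a1. Gm49880, on the same strand at a mean of 0.075 RPKM, shares 144 of the 1605 exon bases of Srd5a2. The sources used here do not say how shared reads were counted, so the levels of Srd5a1 and Srd5a2 and their shares are uncertain.

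Srd5a1, Srd5a2 and Srd5a3 rested on 36 to 73, 6 to 17 and 50 to 92 reads per library. On recovered reads their log2 fold changes were 0.12 (95% confidence interval -0.45 to 0.69), -0.10 (-1.15 to 0.95) and 0.05 (-0.40 to 0.51), with adjusted p of 0.853, 0.935 and 0.919 (limma-voom). The interval of Srd5a2 held a 2-fold fall and ended just short of a 2-fold rise, so it says little at this depth. For Srd5a1 and Srd5a3 the intervals leave out a change of that size, but hold smaller ones in either direction.

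Akr1c14, a 3α-hydroxysteroid dehydrogenase that converts dihydrotestosterone to androstanediol, lies on chromosome 13, 4099011 to 4140688. It was at 0.139, 0.159 and 0.127 RPKM in Control and 0.0391, 0.159 and 0.131 in Middle, so that Middle replicate 1 alone was low, with 6 reads. The log2 fold change on recovered reads was -0.56 with a 95% confidence interval from -1.55 to 0.42 (adjusted p = 0.542, limma-voom). Genes of the Akr1c family are near copies of each other, and the sources used here do not say how reads that match several were counted. Gm18857, on the same strand at a mean of 0.0143 RPKM, also shares 234 of the 3239 exon bases of Akr1c14.

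Hsd17b7, which reduces estrone to estradiol and a 3-keto group in cholesterol synthesis, lies on chromosome 1, 169777104 to 169796810. Its level was 0.110, 0.0839 and 0.0707 RPKM in Control and 0.0910, 0.0756 and 0.111 in Middle, from 14 to 32 reads per library. The groups covered the same range, and the log2 fold change on recovered reads was 0.07 (95% confidence interval -0.65 to 0.79, adjusted p = 0.938, limma-voom).

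Hsd11b1, which regenerates active glucocorticoid and lies on chromosome 1, 192903942 to 192946383, was close to the detection limit. It had 2, 6 and 6 reads in Control and 2, 13 and 8 in Middle, or 0.0088, 0.0242 and 0.0364 RPKM against 0.0099, 0.0656 and 0.0333. A count of 0 allows up to 3 fragments, or 6 reads, and 4 of 6 libraries were at or under that. No difference between the groups is read from these counts.

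The related genes gave the setting in which the 10 genes were read. The 7 lists of pathway genes with tested members had 0 of them past the adjusted threshold in either direction (limma), with 0 to 2 of each list at an unadjusted p under 0.05, where 0.0532% and 20.7% of all genes passed. Their medians are given beside the median log2 fold change of all tested genes, 0.03, and 55.9% of all genes lay above 0.

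Those other 17β-hydroxysteroid dehydrogenases that were tested lay higher in Middle by their means. Of 10 genes 5 were tested, 5 lay above 0 and 0 below, and the median was 0.26. Hsd17b11, a lipid droplet enzyme, averaged 1.31 ± 0.019 RPKM in Control against 1.86 ± 0.25 in Middle, and Hsd17b8, of mitochondrial fatty acid synthesis, averaged 5.38 ± 0.40 and 7.17 ± 1.16 (SD, n = 3; limma adjusted p = 0.178 each). They are named for the smallest p-values of their list, as are the genes given with an adjusted p in each list that follows. The groups did not overlap for 3 of the 5, all with Middle above, where 29.3% of all tested genes did not (17.9% with Middle above). With 5 genes this is not read as a result about the list. Hsd17b3, which makes testosterone, was tested in this list too and was at 13.2 ± 0.73 and 14.3 ± 3.83 RPKM (SD, n = 3).

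Conjugation and its cofactor supply surround Sult1e1. Of 28 genes 23 were in the table, 9 were tested, 8 lay above 0 and 1 below, with a median of 0.12. Sult1e1 was the only sulfotransferase of the genes examined with more than 4 RPKM in every library, and Sult1a1, a phenol sulfotransferase, was the only other one tested (2.09 to 2.71 RPKM in Control, 2.26 to 3.58 in Middle). Papss1, which makes the sulfate donor PAPS, averaged 1.41 ± 0.16 RPKM in Control against 1.71 ± 0.074 in Middle, and Slc35b2, which carries PAPS into the Golgi, averaged 1.94 ± 0.19 and 2.60 ± 0.40 (SD, n = 3; limma adjusted p = 0.254 and 0.192). Both were higher in every Middle than in every Control library. The groups did not overlap for 2 of the 9 tested genes, where 29.3% of all tested genes did not, so this is not read as a result about the list.

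Directions were mixed in a list that joins enzymes served by Por (P450s, heme oxygenases and squalene epoxidase) with cytochrome b5, its reductases and the heme-binding Pgrmc1 and Pgrmc2. Of 30 genes 15 were tested, 8 above 0 and 7 below, with a median of 0.04. Cyp26b1, which breaks down retinoic acid, averaged 3.63 ± 0.32 RPKM in Control against 4.53 ± 0.61 in Middle (adjusted p = 0.222), and Cyp51, a lanosterol demethylase that is also in the cholesterol list, averaged 11.7 ± 0.48 and 10.4 ± 0.58 (SD, n = 3; limma adjusted p = 0.25). Cyp17a1, which shares Por with aromatase, was at 22.3 to 23.8 RPKM in Control and 13.1 to 26.5 in Middle.

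Of 16 aldo-keto reductase and 11β-related genes 13 were in the table and 5 were tested, 4 above 0 and 1 below (median 0.15). Akr1b8, an aldo-keto reductase, averaged 26.9 ± 2.31 RPKM in Control against 30.8 ± 2.67 in Middle (SD, n = 3; limma adjusted p = 0.258). H6pd, which supplies NADPH to Hsd11b1, was at 0.814 ± 0.093 and 1.02 ± 0.075 RPKM (SD, n = 3; limma adjusted p = 0.29), far above Hsd11b1 itself. It was tested only because its Middle mean passed 1 RPKM, and its difference is also the list median, so neither that median nor the count above 0 is read as support.

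Partners of the 3 members with posts outside hormone metabolism were measured as well. In cholesterol synthesis after lanosterol, the pathway of Hsd17b7, 7 of 11 genes were tested, 4 above 0 and 3 below (median 0.06). The sterol isomerase gene Ebp averaged 4.79 ± 0.062 RPKM in Control against 6.37 ± 1.12 in Middle (SD, n = 3; limma adjusted p = 0.18), far above the level of Hsd17b7.

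In fatty acid elongation, the pathway of Hsd17b12, 6 of 13 genes were tested, 4 above 0 and 2 below (median 0.09). The dehydratases Hacd1 and Hacd3 were at 7.96 ± 0.33 and 10.6 ± 0.98 RPKM in Control against 9.65 ± 0.19 and 12.97 ± 0.91 in Middle (SD, n = 3; limma adjusted p = 0.178 and 0.183), and both were higher in every Middle library. The groups did not overlap for 2 of the 6 tested genes, where 29.3% of all tested genes did not. Of 14 dolichol genes, the pathway of Srd5a3 with Srd5a3 itself among them, 11 were tested, 10 above 0 and 1 below (median 0.14), and Alg14 among the 10 was tested only through its Middle mean. Dhdds, which builds the polyprenol chain, was at 5.30 ± 0.48 and 6.73 ± 0.98 RPKM, and Alg5, a glucosyltransferase of dolichol phosphate, at 2.08 ± 0.069 and 2.60 ± 0.42 (SD, n = 3; limma adjusted p = 0.202 and 0.241).

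**Figure D4:**
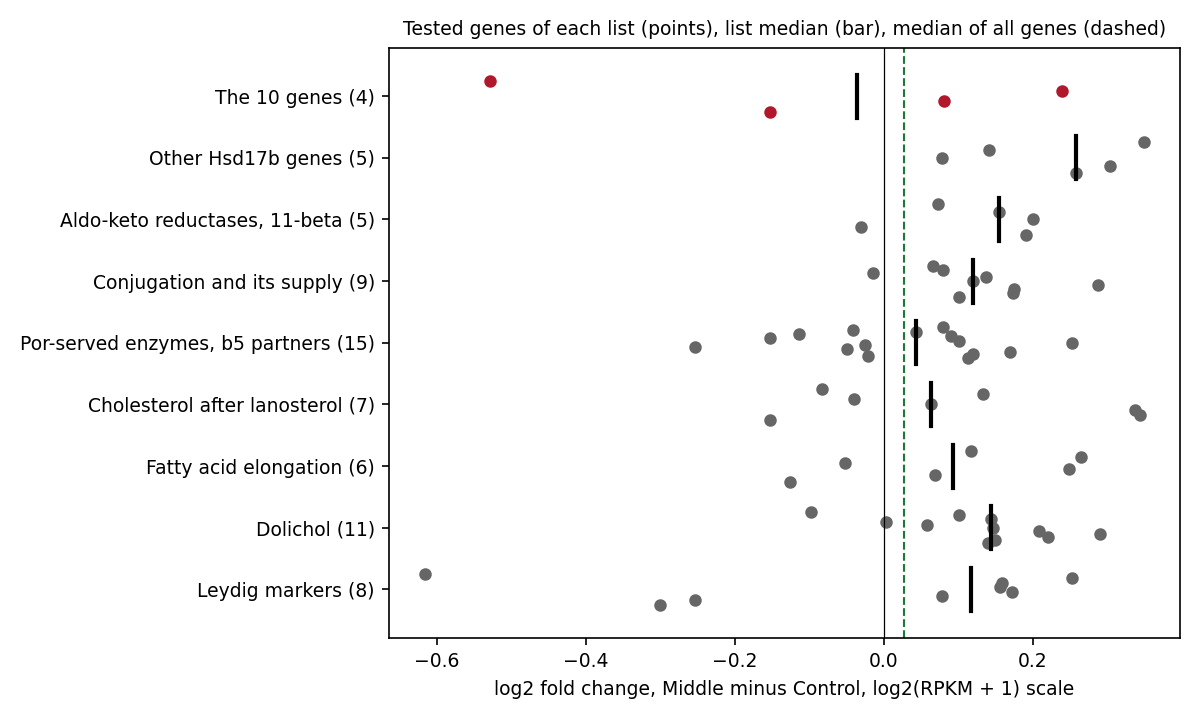
Log2 fold change, Middle minus Control on the log2(RPKM + 1) scale (horizontal axis), of each tested gene (points; the number tested is in brackets) of the 4 tested members (red), 7 pathway lists and the Leydig markers (grey), with list medians as black bars and the median of all genes, 0.03, dashed. Sult1e1 is the leftmost red point at -0.53 and Star the leftmost Leydig marker at -0.62.

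For each tested gene the most similar profiles were sought among the 7549 genes averaging 5 RPKM or more, by Pearson's r of log2(RPKM + 1) over 6 libraries. Sult1e1 was most like Tmem64 (r = 0.992) and 4930455B14Rik (0.991), and 2.31% of the genes had an r over 0.9 with it. Por was most like Ndufb11b (0.9996) and Pdk3 (0.998), Hsd17b12 most like Gm13394 (0.997) and Ube2m (0.996), and Cyp19a1 most like Fam13b (0.997) and Gm45528 (0.996). An r over 0.9 was held by 14.2%, 7.39% and 4.13% of the genes with Por, Hsd17b12 and Cyp19a1. With 6 libraries that also share depth and GC trends, such values describe the order of libraries and no more.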

How the data were processed

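Testis RNA of 6 mouse libraries (3 Control, 3 Middle, grouped by title) was isolated with Trizol and an mRNA library kit was used, per the labels' protocols. Per the submitters' processing notes, fastp 0.23.0 was used and the build was GRCm39. The sources used here do not give aligner, counter or strandedness. The deposited values are RPKM, computed by the authors from reads, the gene length in the table and the library total, as the values show: multiplied by length, 100% fell on whole multiples of 1 step per library (tolerance 0.001). Those recovered reads summed to 38820385 to 58389391 per library, mostly in pairs (73.3% to 74.7% even among low genes). Libraries of a group differed by more than counting noise (chi-square per degree of freedom 3.39 to 19.2).

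Genes averaging 1 RPKM or more in a group (15040) were compared on log2(RPKM + 1) by limma 3.58.1 (R 4.3.3, trend in the prior variance, two-sided, Benjamini-Hochberg), tested on simulated data. Log2 fold changes on this scale understate those of low genes. Limma-voom on recovered reads (at least 10 in 3 libraries) served lower genes. Levels relative to Leydig markers used exact permutation tests (SciPy 1.17.1). Detection limits hold for counting error alone: without molecular identifiers, reads may be copies of 1 molecule.

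The members, lists and tests were chosen with earlier results of these data known. The text names the 10 members, the 2 genes of smallest p in each pathway list (some items are not reported here) and the 2 most similar genes of each tested member. Alternatives were other pseudocounts, filters, scaling, sample weights, a GC correction (loess, span 0.5), a replicate block and leaving out each library. Promoter sequences are from RefSeq (GRCm38.p6), with 10 of 10 members matched by symbol.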

Additional observations from a re-analysis of the deposited data

How the results depend on the processing

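The log2 fold changes of Sult1e1 (16 alternatives, -0.72 to -0.40, adjusted p 0.117 to 0.511), Por (16, 0.13 to 0.32), Hsd17b12 (16, 0.0058 to 0.12) and Cyp19a1 (13, -0.34 to -0.10) kept their sign, and none passed adjustment. Leaving out 1 library gave -0.72 to -0.42, 0.13 to 0.32, 0.0058 to 0.12 and -0.24 to -0.10. Cyp19a1 was under the filter without Control replicate 1 or 2 and with 1 RPKM required in every library. Since it passed the filter only through Control, its constant sign is not read as support for a difference. Over all genes 8 passed in the main test, 0 to 3 without 1 library, 54 with sample weights, 5 with 1 RPKM required in every library and 0 without a filter, where 4204 had an unadjusted p under 0.05. With the replicate block 0 passed (2267 unadjusted). The block did not pair the libraries: same-numbered ones had correlations of deviations of -0.15, -0.12 and 0.0054. The cause of these shifts was not tested.

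Relative to Leydig markers, Hsd17b12 turned from -0.02 to 0.14 with the mean of logs and to 0.11 without Insl3 (an alternative chosen after seeing the data, as were all those on genes below the filter), and ranged from -0.082 to 0.047 with 1 library left out. Sult1e1 stayed between -0.89 and -0.57, but its groups overlapped with the mean of logs and without Insl3. Below the filter, log2(RPKM + 1) compresses differences. With a pseudocount of 0.01 Akr1c14 was -0.52 and Hsd11b1 0.38, and on recovered reads Akr1c14 was -0.56. Signs turned: Srd5a2 (0.0041) was -0.014 and -0.064 with pseudocounts of 0.1 and 0.01, -0.018 with sample weights and -0.10 on recovered reads, and Akr1c14 (-0.04) was 0.0081 with the GC trend removed. With 1 library left out, the ranges on the compressed log2(RPKM + 1) scale were -0.0098 to 0.10 for Srd5a1, -0.052 to 0.038 for Srd5a2, -0.00092 to 0.054 for Srd5a3, -0.074 to 0.0045 for Akr1c14, -0.0021 to 0.037 for Hsd11b1 and -0.0063 to 0.020 for Hsd17b7. Srd5a2 was -0.0042 and -0.0069 without Control replicates 1 and 3, and Hsd17b7 -0.0058 without Control replicate 3. Read depth limits these 6 genes.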
